A study of Mus musculus with 36 samples.

Results

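Type I interferon stimulated genes are the genes that cells switch on when interferon reaches them. They were followed here gene by gene in the small intestine of wild-type (WT) mice and of knockout (KO) mice without the long noncoding RNA lnc13. The set was a list of 35 genes with this known function, chosen with earlier results of these data known. The tissue and cell preparation files hold 27179 Entrez genes, and the CD8 tables hold 78275 Ensembl genes. All 35 had values in every library. Of the study's 36 samples, 24 were analysed here. Whole small intestine, lymphocyte preparations of the lamina propria (LPL) and those of the epithelium (IEL) each had 2 lnc13-WT-DQ8 and 2 lnc13-KO-DQ8 libraries, all from gluten-challenged mice, and DQ8 names a human immune gene associated with celiac disease. Intraepithelial CD8 cells came as 3 WT and 3 KO unstimulated libraries, with another 3 of each cultured for 48 h with IL-15, a cytokine that activates intraepithelial lymphocytes, and their titles give no DQ8. Age and strain are not given in the sources used here, nor is whether replicates were separate animals. In tissue the replicates of each genotype differed in a Y-linked gene, as given below, and so were not repeats of the same animal. The p-values measure only the spread between libraries, which outside tissue may be technical. The RNA of lnc13 was not used here to check the genotype labels.

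Type I interferons bind a receptor on the cell surface, and kinases attached to it activate transcription factors, among them STAT2, which joins IRF9 to bind a DNA element in the promoters of target genes. The targets include sensors of viral nucleic acid, further transducers and brakes of the pathway, and proteins that block steps of viral growth. In the intestine both epithelial and immune cells express them, and type III interferons act on the epithelium through a receptor of their own. Many of these genes also respond to interferon gamma.

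The shared DNA element can be seen in the promoters themselves. RefSeq promoter windows (GRCm38.p6, 250 bases before to 50 after the start) were held for 26 of the 35 genes. The core of the interferon stimulated response element was searched on both strands as GAAA, any 2 bases and GAAA again. It was present in 11 of 26 members (42.3%), against 1079 of 27025 genes (3.99%) with a window. Stretches upstream of the start follow for 5 members described below, 5′ to 3′ on the gene's strand, with the matched letters or their reverse complement in capitals. Ifih1 has its match after the start and is not shown.
Stat2, chr10:128270248-128270315, plus strand: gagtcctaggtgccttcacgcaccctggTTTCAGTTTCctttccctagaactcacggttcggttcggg
Oas3, chr5:120777695-120777764, minus strand: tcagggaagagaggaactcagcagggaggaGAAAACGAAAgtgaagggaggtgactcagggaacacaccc
Ifit1, chr19:34640774-34640843, plus strand: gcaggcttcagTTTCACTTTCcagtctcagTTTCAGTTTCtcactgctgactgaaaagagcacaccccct
Bst2, chr8:71537557-71537626, minus strand: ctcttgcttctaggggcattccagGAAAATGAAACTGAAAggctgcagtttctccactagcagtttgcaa
Isg15, chr4:156200845-156200914, minus strand: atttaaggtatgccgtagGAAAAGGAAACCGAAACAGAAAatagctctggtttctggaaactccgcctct
Between the start and the nearest match shown lie 56 bases in Isg15, 65 in Oas3, 75 in Ifit1, 114 in Bst2 and 212 in Stat2. Isg15 has 3 overlapping matches, Bst2 has 2 overlapping matches and Ifit1 has 2 separate ones. A match describes these letters and not binding.

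Reads in genes numbered 10186522 to 13620975 per library in tissue, LPL and IEL, and 14724754 to 26997371 in CD8 cells as recovered from the normalised values. Member genes held 2 to 3607 reads per library in the first group, with a median of 261.5. The labels were checked against marker genes. The summed level of 8 T cell genes, in CPM (reads scaled to a common library size), was 8539 to 12667 in CD8 libraries and 213 to 701 in IEL libraries. In LPL libraries it was 97.8 and 12.8 in WT and 2.25 and 12.8 in KO, with Cd3g and Trac at 0 in KO replicate 1. In 3 of 4 LPL libraries it lay below every tissue library (32.7 to 70.2), while 5 exocrine pancreas genes summed to 3222 to 7256 CPM there against at most 8.70 in tissue and IEL. T cell markers were thus low in 3 of the 4 preparations labelled LPL. In bulk RNA, fewer cells of a type and less RNA per cell cannot be told apart. Values below are listed in the order of the replicate numbers within each genotype, and SE is the standard error of a log2 difference.

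In whole tissue all 35 members had a higher fitted level in KO than in WT, and none passed the test. The median log2 difference was 0.53, against -0.01 over the 14716 genes tested, of which 48.6% were positive. No member was called by edgeR's quasi-likelihood test with Benjamini-Hochberg adjustment at 0.05, and 0.0% of all genes were called. At an unadjusted p under 0.05 edgeR gave 0 members and 472 genes (3.21%). DESeq2 gave 3 members and 545 genes at that level and called 0 members. In a fit of the 4 tissue libraries alone with the replicate number as a block, edgeR gave 20 members at that level, all positive, and 1322 of 13404 genes, and called 0 members. KO lay above WT with no overlap in 10 of 35 members (Usp18, Ifi35, Ifi44, Oas1a, Oas2, Oas3, Oasl1, Rsad2, Bst2 and Lgals3bp), against 13.2% of all genes. A difference above 1 was found in 9 of 35 members, against 2.43% of genes.

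Among the antiviral effectors of tissue, Oasl1 (gene ID 231655, GRCm38.p6 chromosome 5, 114923143 to 114937911), an oligoadenylate synthetase-like protein that restrains Irf7 translation in mice, was 76.7 and 132 CPM in WT and 146.6 and 432 in KO. Both KO libraries lay above both WT libraries, KO replicate 1 by little and KO replicate 2 by more (log2 1.47, SE 0.67, edgeR adjusted p = 1, the lowest p of the 35). Rsad2, which encodes the antiviral enzyme viperin, was 4.49 and 10.8 CPM in WT and 12.2 and 35.2 in KO (log2 1.63, SE 0.90) and also did not overlap. Ifit2, whose protein binds viral RNA, was 5.52 and 16.1 CPM in WT and 8.04 and 30.5 in KO (log2 0.83, SE 0.69), and KO replicate 1 lay between the WT libraries. Oas2, named after its value was seen, had the largest difference, from 0.863 and 0.577 CPM in WT and 2.07 and 9.94 in KO (log2 3.04, SE 1.48). Its WT libraries held 10 and 7 reads. The 15 effectors had a median of 0.90 and ranged from 0.28 to 3.04.

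The regulators named here overlapped between genotypes in tissue. Isg15, the ubiquitin-like modifier, was 5.69 and 21.9 CPM in WT and 16.3 and 50.05 in KO (log2 1.27, SE 0.99). Trim25, a ubiquitin ligase that activates RNA sensing, was 118.8 and 231 CPM in WT and 201.3 and 401 in KO (log2 0.78, SE 0.38, edgeR adjusted p = 1). Irf7, the factor that amplifies interferon production, was 90.0 and 215 CPM in WT and 152 and 325 in KO (log2 0.65, SE 0.57). In all 3 genes KO replicate 2 was highest and WT replicate 1 lowest, and KO replicate 1 lay between the WT libraries. Trim30a, a tripartite motif protein, was 4.49 and 7.75 CPM in WT and 5.001 and 21.3 in KO (log2 1.099, SE 0.82), so that only KO replicate 2 stood above WT. Lgals3bp, a secreted galectin-binding glycoprotein, was 54.9 and 75.8 CPM in WT and 78.3 and 107 in KO (log2 0.51, SE 0.40), with no overlap. The 13 regulators had a median of 0.53, the 4 sensors 0.44 and the remaining 3 genes 0.51.

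The tissue difference rested on its outer libraries. KO replicate 2 was the highest of the 4 in 34 members and WT replicate 1 the lowest in 30. Without KO replicate 2 the median was 0.04 with 20 members positive, and Ifit2 and Trim30a turned negative (-0.40 and -0.28). Without WT replicate 1 it was 0.26 with 26 positive. Without WT replicate 2 it was 1.22 and without KO replicate 1 it was 1.09, both with 35 positive. Within replicate 1 KO was higher in 33 of 35 members (median 0.51) and within replicate 2 in 34 of 35 (0.68). Replicate 2 of both genotypes had the Y-linked gene Ddx3y at 34.0 and 38.7 CPM, against at most 0.109 in the other 10 libraries, and little of the proximal enterocyte gene Lct, which in replicate 1 was 81.2 CPM (WT) and 211 CPM (KO) and in replicate 2 was 0.330 and 0.359. The 7 macrophage genes also split by replicate, summing to 62.7 and 130.3 CPM in WT and 58.7 and 135.3 in KO. The 5 enterocyte genes summed to 8599 and 11543 in WT and 17063 and 14446 in KO. The 5 neutrophil genes summed to 0.431 and 1.48 in WT and 1.20 and 8.98 in KO. The part of these traits in the result was not tested.

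**Figure D1:**
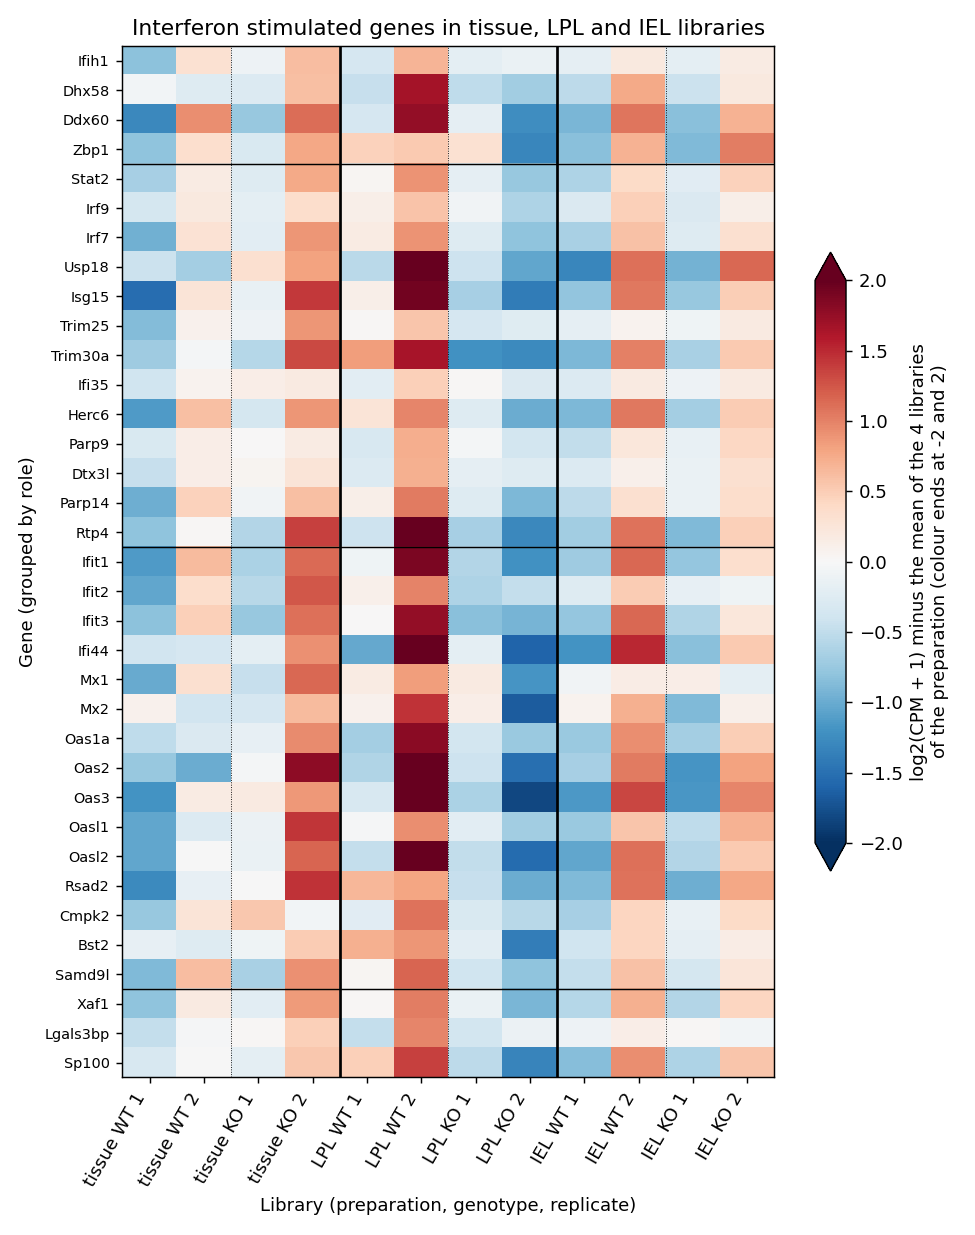
Level of the 35 genes in each tissue, LPL and IEL library, as log2(CPM + 1) minus the mean of the 4 libraries of the same preparation, with genes grouped by role from sensors at the top to others at the bottom. KO replicate 2 of tissue is highest for 34 genes, WT replicate 2 of LPL for all 35, and both replicate 2 libraries of IEL are mostly above both replicate 1 libraries.

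In LPL preparations the order was the opposite, with all 35 members lower in KO than in WT, and again none passed. The median log2 difference was -1.55, against 0.01 over all genes, of which 52.7% were positive. By edgeR 0 of 35 members were called at an adjusted p under 0.05 and 0.0% of genes. At an unadjusted p under 0.05 edgeR gave 10 members and 427 genes (2.9%). DESeq2 gave 17 members and 601 genes at that level and called 0 members. KO lay below WT with no overlap in 23 of 35 members, against 8.62% of genes, and the difference was below -1 in 25 of 35, against 10.4% of genes.

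Bst2 (gene ID 69550, chromosome 8, 71534255 to 71537472), which encodes tetherin, a membrane protein that holds budding virus at the cell, was 36.6 and 41.5 CPM in WT and 19.0 and 7.79 in KO in LPL. The WT libraries were close to each other and both lay well above KO (log2 -1.55, SE 0.43, edgeR adjusted p = 1, the lowest p of the 35). Oas3, an oligoadenylate synthetase that activates an RNA-cleaving enzyme, was 5.85 and 58.3 CPM in WT and 4.503 and 1.42 in KO (log2 -3.47, SE 1.35). Oasl2, a relative of it, was 15.1 and 127 CPM in WT and 14.9 and 6.67 in KO (log2 -2.73, SE 1.096). In both genes WT replicate 2 alone was high and WT replicate 1 was near KO replicate 1. The 15 effectors had a median of -1.65 and reached down to -3.47.

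Of the regulators, Trim30a (gene ID 20128, chromosome 7, 104409025 to 104465193) was 13.5 and 24.5 CPM in WT and 2.51 and 2.35 in KO (log2 -2.96, SE 0.87, edgeR adjusted p = 1), with both KO libraries far below both WT libraries. Isg15 was 5.78 and 22.8 CPM in WT and 2.94 and 1.36 in KO (log2 -2.75, SE 1.08). Rtp4, a chaperone of membrane receptors, was 4.13 and 34.4 CPM in WT and 3.29 and 1.79 in KO (log2 -2.93, SE 1.16), and WT replicate 1 was close to KO. Dhx58, the sensor LGP2, was 7.503 and 36.2 CPM in WT and 7.27 and 6.24 in KO (log2 -1.70, SE 0.71), where all but WT replicate 2 lay close together. Sp100, a protein of nuclear bodies, was 18.1 and 34.7 CPM in WT and 8.57 and 4.51 in KO (log2 -2.02, SE 0.68), with no overlap. The 13 regulators had a median of -1.10, the 4 sensors -1.27 and the other 3 genes -1.30.

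WT replicate 2 was the highest LPL library in all 35 members and KO replicate 2 the lowest in 30. Without WT replicate 2 the median was -0.63 and 7 members turned positive. Without KO replicate 2 it was -1.06, without WT replicate 1 -1.81 and without KO replicate 1 -1.95, with 35 members negative in each. Within replicate 1 KO was lower in 23 of 35 members and higher in 12 (median -0.19), and within replicate 2 it was lower in all 35 (median -1.97). WT replicate 1 was the LPL library richest in T cell and macrophage transcripts. Its 8 T cell genes summed to 97.8 CPM and its 7 macrophage genes to 91.3, against 2.25 to 12.8 and 3.81 to 7.72 in the other 3 libraries. The 2 replicate 2 libraries, between which the members differed most, had equal T cell sums (12.8 in each) and close macrophage sums (7.72 in WT and 6.61 in KO). The part of cell content in the LPL difference was not tested. A list of 6 genes for plasmacytoid dendritic cells, which make type I interferon, summed to 303 and 243 CPM in WT and 344 and 238 in KO. Siglech was at 0 in WT replicate 2 and Cox6a2 at 0 in KO replicate 1. The same list summed to 347 to 806 CPM in CD8 libraries, above every LPL library, so it does not measure plasmacytoid dendritic cells alone.

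**Figure D2:**
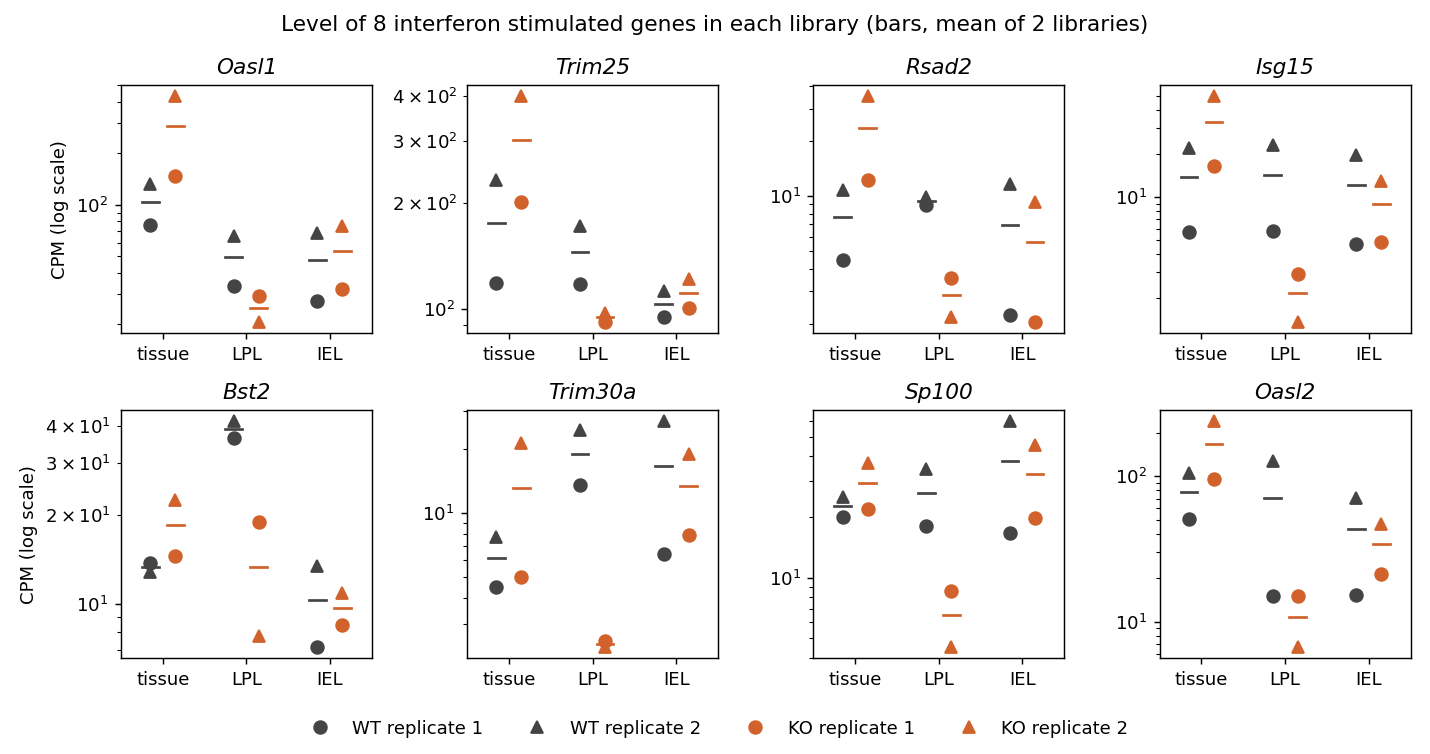
CPM on a log axis of 8 members in tissue, LPL and IEL libraries, with circles for replicate 1, triangles for replicate 2, grey for WT and orange for KO, and bars at the mean of 2 libraries. Oasl1 and Rsad2 are above WT in both KO tissue libraries, and Bst2, Trim30a and Sp100 are below WT in both KO LPL libraries, while WT and KO overlap in IEL for all 8.

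In IEL preparations WT and KO overlapped in all 35 members. The median log2 difference was -0.22, with 10 members positive and 25 negative, against 46.2% of genes positive. By edgeR 0 members and 0.0% of genes were called. At an unadjusted p under 0.05 edgeR and DESeq2 each gave 0 members, and edgeR gave 113 genes (0.768%). No member lay above or below WT without overlap, against 14.8% and 12.3% of genes. The members split by replicate in place of genotype. Ifit3, an RNA-binding effector, was 2.32 and 11.5 CPM in WT and 2.76 and 5.62 in KO in IEL (log2 -0.71, SE 1.00), and Ifit1 was 6.69 and 26.9 in WT and 6.43 and 15.02 in KO (log2 -0.64, SE 1.00). Isg15 was 4.73 and 19.7 CPM in WT and 4.90 and 12.9 in KO (log2 -0.45, SE 0.99), and in all 3 genes replicate 2 was the higher library of its genotype. Rtp4 was 4.55 and 18.1 CPM in WT and 3.88 and 11.5 in KO (log2 -0.55, SE 1.08). Dhx58 was 6.78 and 17.8 CPM in WT and 7.24 and 11.8 in KO (log2 -0.36, SE 0.70).

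Some regulators had a smaller gap between replicates. Irf9, the DNA-binding chain of the interferon-activated complex, was 38.5 and 66.6 CPM in WT and 38.5 and 51.3 in KO in IEL (log2 -0.23, SE 0.35). Parp9 and Dtx3l form an enzyme complex and are neighbours whose annotated spans overlap by 558 bases. Parp9 was 62.2 and 104 CPM in WT and 79.5 and 118 in KO (log2 0.25, SE 0.38) and Dtx3l was 69.0 and 89.8 in WT and 76.1 and 105 in KO (log2 0.19, SE 0.33). Each library left out in turn moved the IEL median to a different place, to -0.78 without WT replicate 1, 0.81 without WT replicate 2, 0.21 without KO replicate 1, and -0.96 without KO replicate 2. All 8 genes named here changed sign in at least 1 of these fits, Ifit3, Ifit1, Isg15, Rtp4, Dhx58 and Irf9 without WT replicate 2 (0.89, 0.73, 0.96, 0.81, 0.53 and 0.26), and Parp9 and Dtx3l without KO replicate 2 (-0.08 in each). Replicate 2 exceeded replicate 1 in 35 of 35 members in WT (median 1.29) and 33 of 35 in KO (0.98), against 49.6% and 49.1% of all genes. The 8 T cell genes followed the same order, at 213 and 701 CPM in WT and 234 and 506 in KO, and 7 macrophage genes summed to only 5.82 to 11.9. The part of T cell content in the members' level was not tested.

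**Figure D3:**
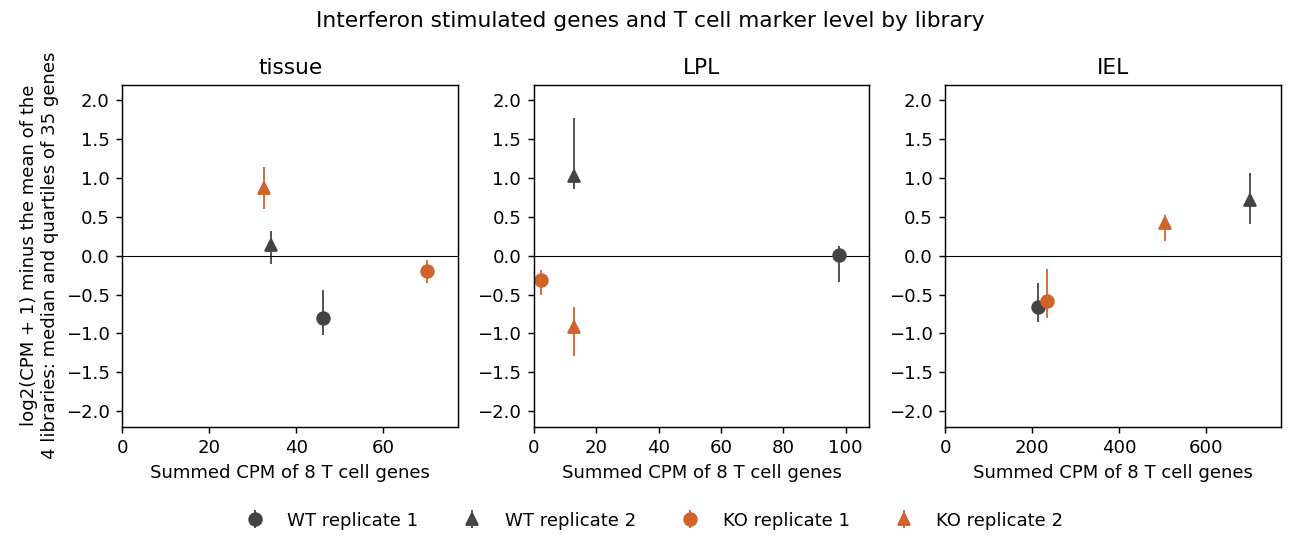
Summed CPM of 8 T cell genes in each library (x axis) against the median of the 35 members (y axis, log2(CPM + 1) minus the mean of the 4 libraries; lines reach the quartiles over genes). In IEL the replicate 2 libraries are high on both axes, and in LPL the WT and KO replicate 2 libraries share the T cell level of 12.8 and lie at opposite ends of the y axis.

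The split by replicate reached beyond IEL. In tissue replicate 2 exceeded replicate 1 in 30 of 35 members in WT (median log2 0.96) and 34 of 35 in KO (1.07), and in WT LPL in 35 of 35 (1.01). Only in KO LPL was the order turned, with 31 members lower in replicate 2 (median -0.58). Over all genes the share higher in replicate 2 was 49.1% to 53.7% in these 6 groups. In tissue both medians exceeded the genotype median of 0.53.

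Whether the KO difference itself differed between preparations was tested as an interaction in the same fit. In LPL it was below that in tissue for all 35 members, with a median of -2.11 against -0.02 over all genes, 47.7% of which were positive. Of these, 13 members had an unadjusted p under 0.05 (1.9% of genes did), and 0 members and 0.0% of genes were called by edgeR (lowest adjusted p = 1.00). DESeq2 gave 22 members and 365 genes at that level and called 0 members. The median stayed negative without each library in turn, and was -1.31 without KO tissue replicate 2 and -1.35 without WT LPL replicate 2. IEL minus tissue had a median of -0.78 with 1 member positive (47.6% of genes), and IEL minus LPL a median of 1.22 with 35 positive (49.4% of genes). In these 2 comparisons edgeR called 0 members, with 0 and 2 at an unadjusted p under 0.05 against 0.836% and 0.747% of genes, and DESeq2 called 0 with 0 and 2. The IEL minus tissue median moved by over 1.5 times with each of the 8 libraries left out, from -1.54 without KO IEL replicate 2 to 0.14 without WT IEL replicate 2. The IEL minus LPL median was 0.47 without WT LPL replicate 2, 0.75 without KO IEL replicate 2, 0.77 without WT IEL replicate 1 and 2.02 without WT IEL replicate 2. Tissue and LPL thus had opposite signs, and no single member passed the test of that difference.

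A further 6 members were added so that each is described. Their KO differences were lowest in LPL and highest in tissue, as in nearly all members. Ddx60, a helicase that aids RNA sensing, was 15.2 and 74.5 CPM in WT and 22.5 and 84.5 in KO in tissue (log2 0.25, SE 1.08), 9.98 and 45.9 in WT and 11.2 and 4.88 in KO in LPL (-1.81, SE 1.14) and 10.6 and 45.1 in WT and 11.2 and 34.4 in KO in IEL (-0.28, SE 1.097). Usp18 was 8.89 and 7.34 CPM in WT and 15.7 and 22.4 in KO in tissue (log2 1.23, SE 1.22), 1.20 and 11.7 in WT and 1.39 and 0.556 in KO in LPL (-2.76, SE 1.36) and 0.803 and 8.60 in WT and 1.33 and 8.85 in KO in IEL (0.13, SE 1.24). In both genes a replicate 2 library held the highest LPL and IEL value. Oas1a, an oligoadenylate synthetase whose near copy Oas1g makes its counts uncertain, was 33.6 and 39.1 CPM in WT and 42.8 and 93.3 in KO in tissue (log2 0.90, SE 0.83), 14.2 and 83.6 in WT and 17.8 and 13.5 in KO in LPL (-1.65, SE 0.85) and 8.47 and 29.4 in WT and 8.88 and 21.5 in KO in IEL (-0.31, SE 0.85). Ifi44 was 3.02 and 3.13 CPM in WT and 3.59 and 8.86 in KO in tissue (log2 1.01, SE 1.58), 1.501 and 35.2 in WT and 3.46 and 0.680 in KO in LPL (-3.17, SE 1.66) and 0.178 and 6.60 in WT and 0.510 and 2.86 in KO in IEL (-0.98, SE 1.64). WT replicate 2 alone was high for Ifi44 in LPL. Mx1 was 1.55 and 5.44 CPM in WT and 2.72 and 10.4 in KO in tissue (log2 0.90, SE 0.90), 2.63 and 4.80 in WT and 2.68 and 0.433 in KO in LPL (-1.28, SE 0.92) and 3.30 and 4.002 in WT and 3.98 and 2.95 in KO in IEL (-0.08, SE 0.90), with little difference between IEL libraries. Xaf1, a pro-apoptotic protein, was 4.49 and 9.90 CPM in WT and 7.28 and 16.4 in KO in tissue (log2 0.72, SE 0.71), 5.03 and 11.03 in WT and 4.42 and 2.16 in KO in LPL (-1.30, SE 0.73) and 3.92 and 11.01 in WT and 3.88 and 8.85 in KO in IEL (-0.22, SE 0.71).

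**Figure D4:**
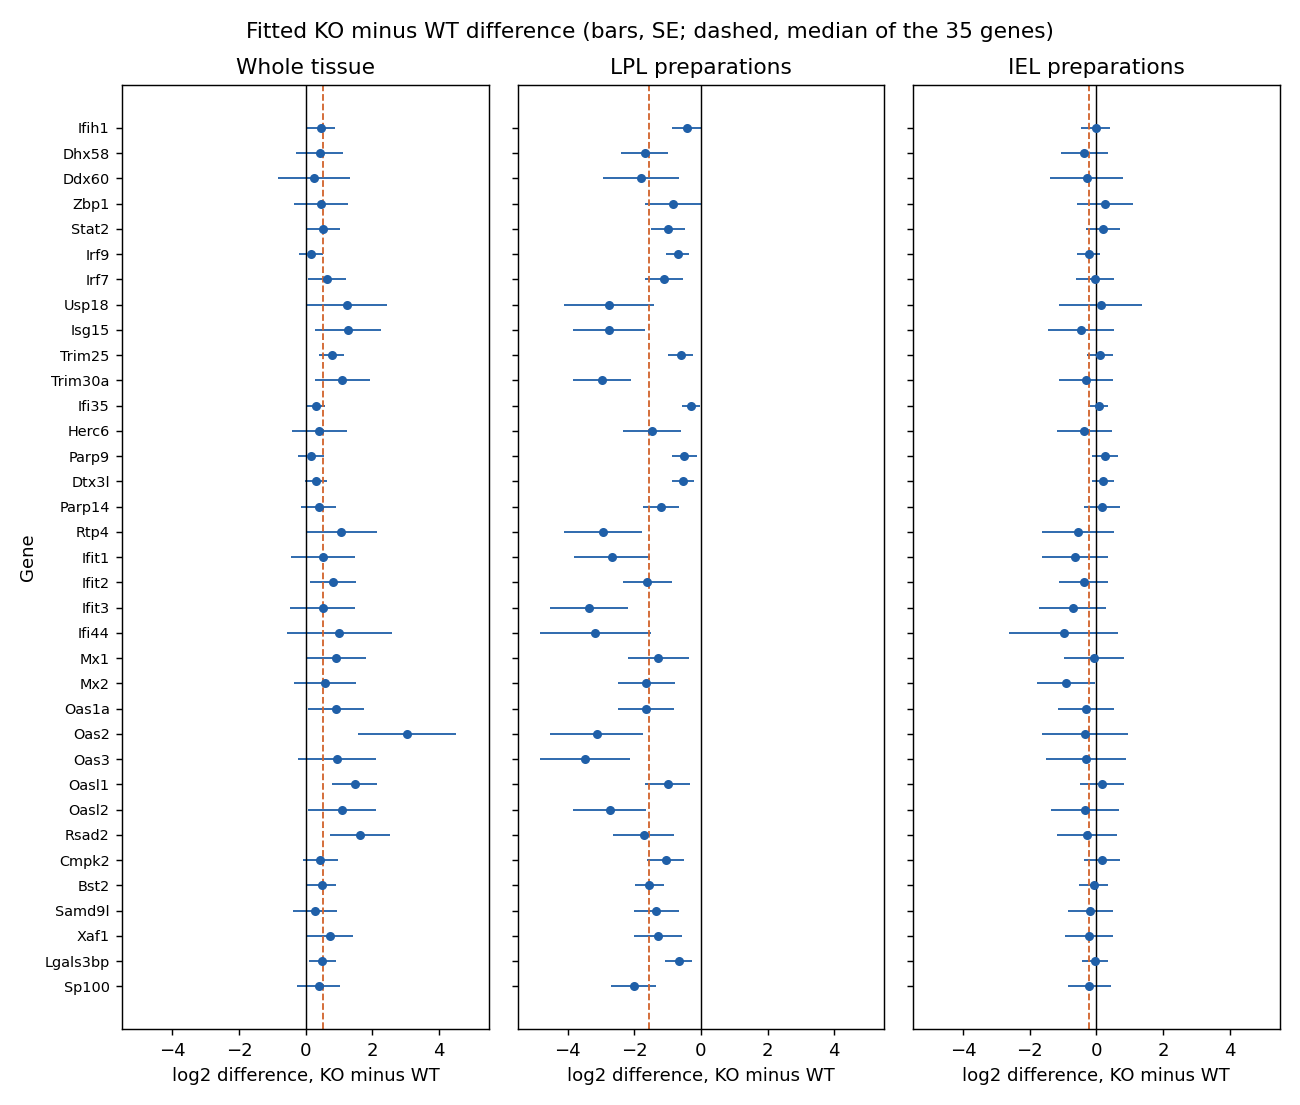
Fitted log2 difference, KO minus WT, of each member in whole tissue, LPL and IEL preparations, with bars for the SE and a dashed line at the median of the 35 genes. All points lie right of 0 in tissue (median 0.53), all lie left of 0 in LPL (median -1.55), and they straddle 0 in IEL (median -0.22).

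Between preparations, taken over both genotypes, 19 of 35 members were called lower in LPL than in whole tissue, and 10 of 35 lower in IEL, a share close to that of all genes. IEL had 10 members lower and 0 higher by edgeR (adjusted p under 0.05), where 23.1% of genes were lower and 21.9% higher. LPL had 19 lower and 1 higher, where 28.0% of genes were lower and 27.2% higher. The median over the 35 members was -0.93 in IEL and -1.43 in LPL, against 0.05 and 0.03 over all genes. Between IEL and LPL 1 member was higher in IEL (Ifi35) and 1 lower (Bst2), against 11.4% and 7.94% of genes, and the median was 0.52. Listed for WT 1, WT 2, KO 1 and KO 2, the levels of the called members follow by role.

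Of the sensors, Zbp1, which binds nucleic acid in the Z form, was 56.9, 126, 81.2 and 172 CPM in tissue, 8.29, 25.9, 8.06 and 32.7 in IEL and 19.8, 20.8, 17.8 and 5.13 in LPL. Every tissue library was above every IEL and LPL library (log2 -2.53, SE 0.61 in IEL with adjusted p = 0.0104, and -2.83, SE 0.62 in LPL with adjusted p = 0.00484, edgeR). Ifih1, the RNA sensor MDA5, was 70.5, 154, 117 and 191 in tissue, 50.7, 66.3, 50.4 and 64.9 in IEL and 32.3, 66.2, 35.8 and 37.4 in LPL. All tissue libraries were again above the others (log2 -1.18, SE 0.31 in IEL and -1.63, SE 0.31 in LPL).

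Of the regulators, Dtx3l had the lowest adjusted p in LPL (log2 -1.71, SE 0.24, adjusted p = 0.000466, edgeR). It was 117, 175.1, 167 and 193 CPM in tissue and 39.9, 79.4, 42.6 and 40.1 in LPL, and its IEL level, given above, was also lower than in tissue (log2 -0.93, SE 0.24). Its partner Parp9 was 128, 174.6, 160.1 and 178 in tissue and 44.3, 93.0, 54.4 and 42.8 in LPL (log2 -1.47, SE 0.27), and lower in IEL as well (log2 -0.82, SE 0.27). Parp14, another enzyme of that family, was 103, 282, 195 and 312 in tissue, 66.8, 121, 88.2 and 123.8 in IEL and 52.9, 101, 40.9 and 25.8 in LPL. In Parp14 only WT replicate 1 of tissue lay within the range of IEL, and every tissue library was above LPL (log2 -1.15, SE 0.38 in IEL and -2.13, SE 0.39 in LPL). Irf7 was 51.5, 122.9, 67.7 and 102 CPM in IEL and 74.0, 123.4, 54.7 and 37.1 in LPL (log2 -1.15, SE 0.41 and -1.50, SE 0.41). Trim25 was 94.9, 112, 101 and 122 in IEL and 118, 171, 91.97 and 97.6 in LPL (log2 -1.09, SE 0.27 and -0.97, SE 0.27).

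A further 4 regulators were called lower than tissue in LPL but not in IEL. Ifi35, an adaptor protein, was 59.7, 83.1, 86.5 and 89.7 CPM in tissue, 55.4, 76.0, 62.6 and 76.3 in IEL and 30.2, 48.9, 35.7 and 28.4 in LPL. All 4 LPL libraries were below all IEL and tissue libraries (log2 -1.16, SE 0.20 against tissue, and IEL minus LPL 0.92, SE 0.20, adjusted p = 0.0126, edgeR). Herc6, the ligase that attaches Isg15 to proteins in mice, was 12.3, 43.5, 21.7 and 52.6 in tissue and 7.28, 12.6, 4.76 and 2.47 in LPL (log2 -2.43, SE 0.62), and its IEL libraries, at 7.49, 31.6, 8.88 and 21.5, lay across both ranges. Stat2 was 54.4, 97.8, 72.4 and 146.9 in tissue, 35.8, 73.1, 47.2 and 77.1 in IEL and 40.4, 74.0, 34.6 and 22.8 in LPL (log2 -1.17, SE 0.37). Isg15 differed by -1.95, SE 0.73 in LPL (adjusted p = 0.0479, edgeR), with the libraries given above overlapping. Whether these members differ between LPL and IEL was tested too, and only Ifi35 and Bst2 passed.

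Effectors spanned the widest range between preparations. Ifit1 was 21.4, 75.3, 30.9 and 107 CPM in tissue and 3.45, 16.5, 2.16 and 1.05 in LPL (log2 -3.86, SE 0.79, adjusted p = 0.00365, edgeR), and lower in IEL too (log2 -2.10, SE 0.72). The annotated span of Ifit1 holds the related gene Ifit1bl1, so its counts are uncertain. Ifit2 was 2.41, 4.80, 2.65 and 2.86 in IEL and 2.93, 6.23, 1.39 and 1.61 in LPL (log2 -2.19, SE 0.52 and -2.45, SE 0.52). Ifit3 was 5.69, 15.5, 5.98 and 24.3 in tissue and 1.73, 8.18, 0.520 and 0.433 in LPL (log2 -3.03, SE 0.77), and the near copy Ifit3b makes its counts uncertain. Oasl1 was 27.3, 68.3, 32.1 and 75.2 in IEL and 33.7, 65.9, 29.3 and 20.6 in LPL, with every value below every tissue library (log2 -1.78, SE 0.48 and -2.30, SE 0.49). Oas3 was 26.8, 70.5, 71.4 and 116 in tissue and 4.99, 32.4, 4.90 and 25.0 in IEL, and passed in LPL only (log2 -2.81, SE 0.91).

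Cmpk2, a nucleotide kinase whose gene lies beside Rsad2, was 30.8, 63.6, 77.2 and 51.0 CPM in tissue and 15.01, 38.6, 14.03 and 11.7 in LPL (log2 -1.57, SE 0.39), with 19.3, 42.6, 28.1 and 40.9 in IEL. Samd9l was 42.6, 122.7, 50.3 and 151 in tissue, 36.7, 77.0, 39.9 and 60.4 in IEL and 35.3, 78.8, 25.8 and 19.4 in LPL (log2 -1.34, SE 0.48). Oasl2 was 51.2, 106, 96.1 and 239 in tissue and 15.3, 71.2, 21.2 and 47.2 in IEL, and differed by -2.05, SE 0.75 in LPL, a call lost with the replicate number as a block (adjusted p = 0.0615, edgeR). Mx2, an antiviral GTPase, went the other way, at 1.64, 0.907, 0.978 and 2.87 CPM in tissue, 4.73, 7.90, 1.94 and 4.79 in IEL and 6.53, 18.2, 6.75 and 1.24 in LPL (log2 2.16, SE 0.65, adjusted p = 0.0194, edgeR). It was the only member higher in a preparation than in tissue by edgeR. The call of Mx2 was lost without WT tissue replicate 2 (log2 2.01), KO tissue replicate 1 (1.94), WT LPL replicate 2 (1.71) or KO LPL replicate 1 (1.39), and with the replicate number as a block (2.16, adjusted p = 0.0604, edgeR). Bst2 was 13.7, 12.9, 14.6 and 22.5 in tissue and 7.13, 13.4, 8.47 and 10.9 in IEL, below its LPL level (IEL minus LPL -1.19, SE 0.31, adjusted p = 0.027, edgeR), the LPL value being carried by the WT libraries.

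These calls depended on single libraries. With each of 8 libraries left out in turn, Ifit2, Trim25 and Zbp1 kept their call between IEL and tissue in every fit. In LPL against tissue 11 members did, namely Zbp1, Ifih1, Dtx3l, Parp9, Parp14, Ifi35, Ifit1, Ifit2, Ifit3, Oasl1 and Cmpk2, and between IEL and LPL none did. The 10 IEL calls became 3 without replicate 2 of WT tissue or replicate 1 of KO IEL, and 4 without replicate 2 of KO tissue or replicate 1 of WT IEL. The 20 LPL calls became 11 without WT tissue replicate 2 and 13 without KO tissue replicate 2. The 2 calls between IEL and LPL became 1 without either KO LPL library, replicate 2 of WT IEL or replicate 1 of KO IEL. They became 0 without replicate 2 of KO IEL and 3 without replicate 2 of WT LPL. The median between IEL and tissue was -0.49 without KO tissue replicate 2. That between IEL and LPL was -0.06 when WT IEL replicate 2 was left out, 0.15 when KO IEL replicate 2 was, 0.31 without WT LPL replicate 1 and 0.89 without WT LPL replicate 2. Tissue libraries held more epithelial RNA, with 5 epithelial genes summing to 13238 to 19273 CPM against 5724 to 7743 in LPL and IEL. The Y-linked gene Ddx3y, seen in replicate 2 of tissue, was at most 0.109 CPM in every LPL and IEL library. Whether either enters the differences was not tested.

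The other genes of the pathway, 69 in a list of known genes, were described in the same way, and 62 were tested in tissue, LPL and IEL. None was called by edgeR in a KO comparison. In tissue 45 were positive and 17 negative (median 0.15), with 2 at an unadjusted p under 0.05. In LPL 8 were positive and 54 negative (median -0.56), with 12 at that level. In IEL 30 were positive and 32 negative (median -0.02), with 0 at that level. Over all genes 48.6%, 52.7% and 46.2% were positive in tissue, LPL and IEL. The shares of all genes at that level were 3.21%, 2.9% and 0.768%. The interferon genes themselves were hardly seen. Ifnb1, Ifna1, Ifna2, Ifna4 and Ifna5 were at 0 in all 12 tissue, LPL and IEL libraries, and Ifnl2 and Ifnl3 were at most 0.12 CPM. Ifng was 0.535, 7.10, 0.612 and 7.01 CPM in IEL (WT 1, WT 2, KO 1 and KO 2), and was higher in both replicate 2 libraries, as the members were.

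Of the receptor chains, Ifnar1, the type I receptor, was 49.1 and 61.4 CPM in WT and 64.8 and 65.4 in KO in tissue and 53.2 and 40.3 in WT and 35.5 and 38.6 in KO in LPL. KO lay above WT in tissue and below it in LPL, and neither passed. Its partner Ifnar2 was 9.66 and 13.0 in WT and 9.68 and 11.7 in KO in tissue and 16.2 and 4.61 in WT and 7.19 and 5.38 in KO in LPL, with overlap in both. Ifnlr1, the type III receptor of epithelium, was 20.02 and 22.3 CPM in WT and 27.0 and 29.7 in KO in tissue (log2 0.42, SE 0.18, edgeR adjusted p = 1). In LPL it was 9.75 and 11.7 in WT and 11.3 and 10.3 in KO, with overlap.

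Of the kinases, Jak1 was 137 and 113 CPM in WT and 91.5 and 104 in KO in LPL and 116 and 184 in WT and 142 and 193 in KO in tissue. Tyk2, the other kinase of the type I receptor, was 52.6 and 48.0 in WT and 42.6 and 41.2 in KO in LPL and 37.4 and 40.8 in WT and 43.7 and 42.0 in KO in tissue. Both kinases were below WT in both KO LPL libraries. Irf1, which responds to interferon gamma, was 287 and 219 in WT and 307 and 192 in KO in LPL and overlapped.

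In unstimulated CD8 cells 0 of 30 members tested were called by limma with Benjamini-Hochberg adjustment, and 0.0% of 17208 genes. Dhx58, Mx1, Oas2, Oasl1 and Cmpk2 were below a mean of 5 normalised counts and were not tested. At an unadjusted p under 0.05 there were 3 members (Rtp4, Herc6 and Rsad2), against 2.97% of genes. The median difference, on the log2(normalised count + 1) scale used for all CD8 cells, was -0.81 with 11 members positive, against -0.08 and 47.9% over all genes. KO lay below WT with no overlap in 5 of 30 members, against 4.71% of genes, and above in 2, against 3.81%. Single genes were high in some libraries of a genotype and near 0 in others. Of 10510 genes with a mean of at least 50, 48.3% spread over at least 50-fold within the WT libraries and 47.4% within KO, and 15 and 17 of 26 members did. In the IL-15 set those shares were 1.54% and 0.0% of 10569 genes and 0 of 27 members. At least 1 library at 500 or more and at least 1 at 20 or less was seen for 22 of 35 members without stimulation and for 0 in the IL-15 set. The share of all genes with that range was not counted, so whether it is particular to the members is not known.

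Rtp4 (gene ID ENSMUSG00000033355, GRCm38.p6 chromosome 16, 23520219 to 23614222) was 949.7, 1221 and 890.2 normalised counts in WT and 0, 0.929 and 0 in KO in unstimulated CD8 cells. All WT libraries held it and all KO libraries were near 0 (fitted log2 -9.67, SE 1.52, limma adjusted p = 0.905; the size depends on the added 1). The RefSeq span of Rtp4 overlaps Masp1 by 1022 bases. These counts are per Ensembl gene, whose spans were not compared, so they remain uncertain. Herc6 (ENSMUSG00000029798, chromosome 6, 57580992 to 57665136) was 1107, 1043 and 774 in WT and 11.2, 5.58 and 1.33 in KO (log2 -7.40, SE 1.76, limma adjusted p = 0.91). The pattern of every WT library at 500 or more and every KO library at 20 or less was found in 2 of 26 members, these 2, and in 31 of 10510 genes (0.295%). The opposite pattern was found in 0 members and 8 genes.

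The other members with low p in unstimulated CD8 cells were less even. Rsad2 was 973, 7.81 and 15.02 in WT and 1.02, 0 and 2.66 in KO, with every WT library above every KO library and WT replicate 1 far above the rest (log2 -4.73, SE 1.89, and -2.61 without WT replicate 1). Dtx3l was 951, 1815 and 498 in WT and 321, 27.0 and 2.66 in KO (log2 -4.89, SE 2.21) and Samd9l was 1825, 2672 and 628 in WT and 6.10, 269.5 and 403 in KO (log2 -3.98, SE 2.03), both without overlap. Ifih1 was 1369.8, 2773 and 4.01 in WT and 16.3, 13.9 and 3.99 in KO (log2 -4.62, SE 2.76), where WT replicate 3 was as low as KO. Sp100, at 10713, 9862 and 3569.7 in WT and 11797, 13463 and 23546 in KO, was higher in every KO library (log2 1.103, SE 0.51), and Ifi44 was low throughout, at 1.74, 7.81 and 3.00 in WT and 23.4, 23.2 and 6.66 in KO (log2 1.85, SE 0.97). Ifi35 was the member of mean 50 or more whose 6 libraries stayed within 3-fold, at 2958, 2986 and 2237 in WT and 3228, 1579 and 1779.9 in KO. The median over members was -2.23 without WT replicate 2, -1.23 without KO replicate 2, -0.40 without WT replicate 1 and -0.07 without replicate 1 of both genotypes. T cell genes summed to 9295 to 9809 CPM in WT and 8539 to 9689 in KO.

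In the IL-15 set WT and KO were close for most members. By limma 0 of 32 members tested were called and 0.0% of 16371 genes, with 2 members (Dhx58 and Mx1) at an unadjusted p under 0.05, against 11.3% of genes. Ifi44, Mx2 and Oas2 were not tested. The median was -0.07 with 13 members positive, against 0.08 and 56.4% over all genes. KO lay below WT with no overlap in 6 of 32, against 9.16% of genes, and above in 2, against 11.1%. Of 27 members with a mean of at least 50, 25 stayed within 3-fold over the 6 libraries, and the share of all genes that did was not counted.

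Dhx58 was 136.2, 100.5 and 83.6 normalised counts in WT and 166, 183 and 209 in KO in the IL-15 set. Every KO library was above every WT library (log2 0.82, SE 0.28, limma adjusted p = 0.417). Usp18, the protease that removes Isg15 and dampens the receptor, was 175.96, 241 and 151 in WT and 276, 208 and 289 in KO (log2 0.46, SE 0.27), with overlap. Oasl1 was 29.5, 68.1 and 0 in WT and 61.2, 54.7 and 64.5 in KO, where 1 WT library was listed at 0. Mx1, an antiviral GTPase, was 11.4, 1.12 and 84.9 in WT and 0, 0 and 0 in KO (limma adjusted p = 0.422), and it is given without a fold because all KO libraries were at 0 and WT replicate 2 held little. With no filter on low genes its adjusted p by limma was 0.0304, in a fit that called 366 of 41341 genes (0.885%). Trim25 was 732, 644 and 683 in WT and 555, 589.9 and 522 in KO (log2 -0.30, SE 0.15), with every KO library below WT.

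Herc6 was 434, 449.9 and 472 in WT and 416, 371 and 331 in KO in the IL-15 set (log2 -0.28, SE 0.18), so both genotypes held it. Rtp4 was 1220.4, 1369.7 and 950.5 in WT and 1281, 1031 and 1273 in KO (log2 0.03, SE 0.18), again in both. Bst2 was 1191, 1218 and 1234 in WT and 1044, 1047 and 1100.1 in KO (log2 -0.19, SE 0.12) and Sp100 was 9944, 9341 and 13785 in WT and 8678, 8779 and 8199 in KO (log2 -0.35, SE 0.16). In Bst2 and Sp100 every KO library was below every WT library, by a margin that limma did not call. Without WT replicate 3 the median over members was 0.02. Without replicate 1 of both genotypes it was -0.16.

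The CD8 tables were normalised apart and were not tested against each other. Side by side in CPM of recovered reads, every IL-15 library lay above every unstimulated library for Dhx58, Stat2, Oas3 and Cmpk2, and the ranges overlapped for the other 31 members. Of genes with a mean of at least 5 in either table, that order held for 4 of 34 members and for 2408 of 21014 genes (11.5%), so the members' share was near that of all genes, and the opposite order held for 0 members and 6.67% of genes. Stat2 was 24.8 to 51.4 CPM in the IL-15 set and 0.155 to 19.3 without stimulation. Dhx58 was 4.67 to 12.7 and 0.0516 to 0.805. Of the pathway genes 53 were tested without stimulation (29 positive, 24 negative) and 54 in the IL-15 set (33 positive, 21 negative). By limma 0 were called in either, and 3 and 7 were at an unadjusted p under 0.05. Over all genes 47.9% and 56.4% were positive, and 2.97% and 11.3% were at that level. Ifnar1 was 2495, 2102 and 2148 normalised counts in WT and 2474, 2731 and 2603 in KO in the IL-15 set, and Ifnb1 was listed at 0 in all 6 libraries.

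**Figure D5:**
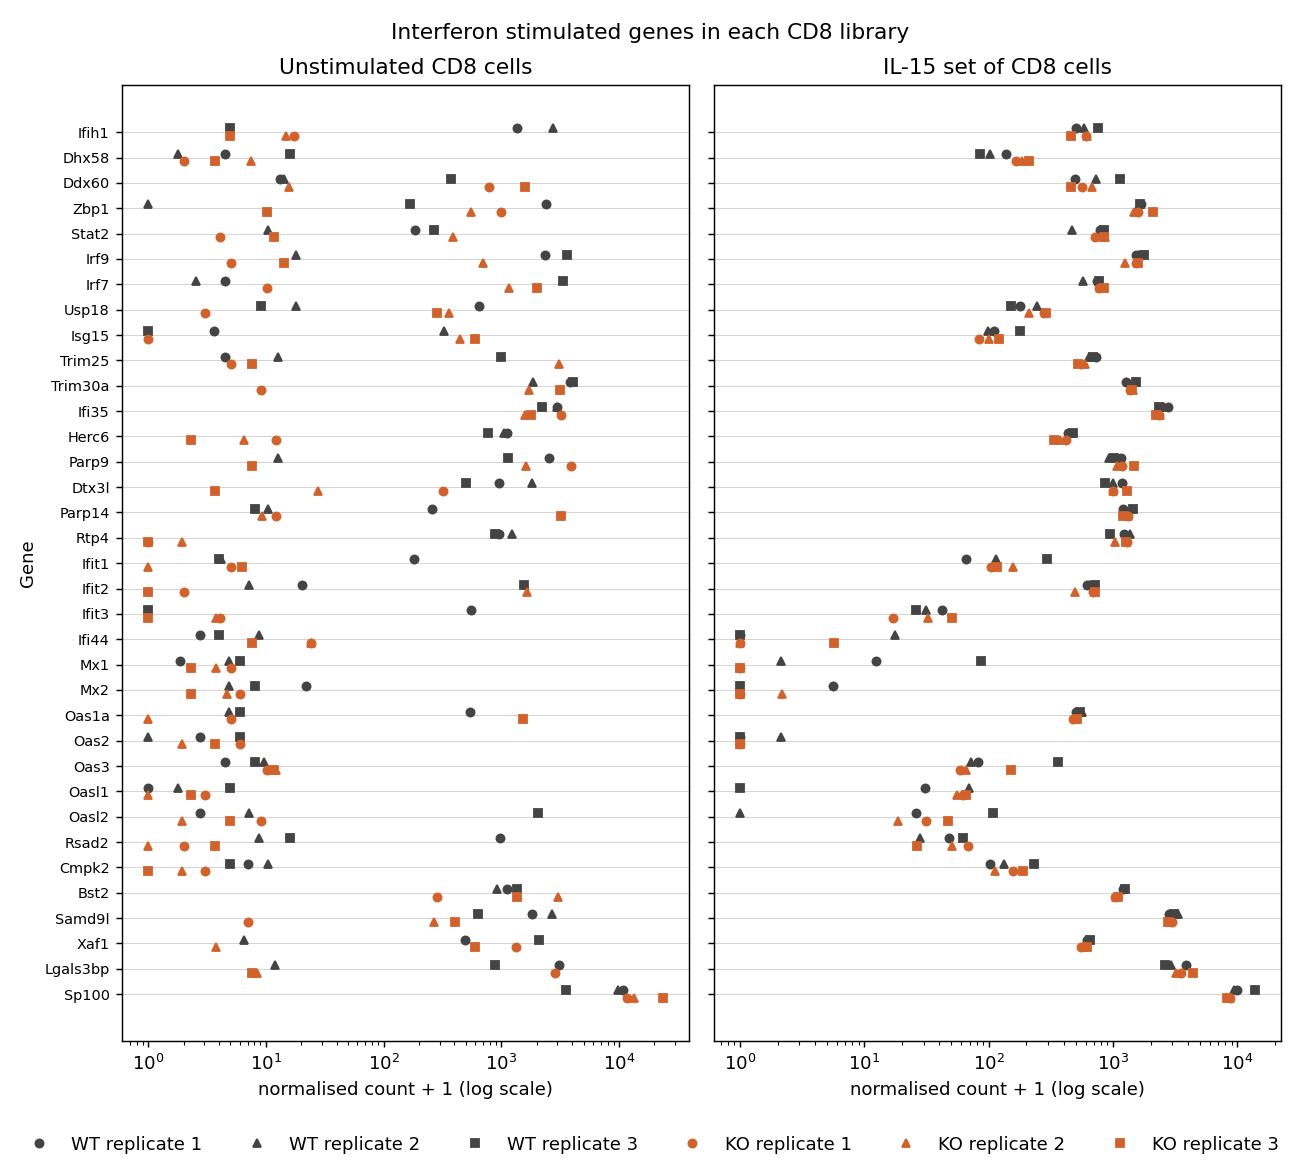
Normalised count + 1 on a log axis of each member in the 6 unstimulated (left) and 6 IL-15 (right) CD8 libraries, grey for WT and orange for KO, with a symbol for each replicate. Without stimulation many genes have libraries at both ends of the axis and Rtp4 and Herc6 separate all WT from all KO libraries, while in the IL-15 set the points of most genes lie close together.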

How the data were processed

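RNA was sequenced from whole small intestine, LPL, IEL and CD8 IEL samples of mice. For tissue, LPL and IEL the deposited values are raw read counts per Entrez gene, made by featureCounts, per the file headers, on reads that HISAT2 had aligned, while the submitters' processing notes list TopHat, STAR, DESeq and DESeq2 and the builds mm10 and mm39, with no role. For CD8 cells the authors deposited a signal, read counts divided by a size factor per library, per Ensembl gene, and which tool made it is not given in the sources used here. Whether counting used strand is not given either. Dividing each CD8 value by what 1 read is worth in its library, estimated from the low values, gave whole reads for 100.0% of values within 0.01 read, and these reads served only for depth and CPM. Gene symbols came from RefSeq and gene name tables and matched 25275 of 27179 Entrez and 51486 of 78275 Ensembl IDs. Of all per-sample columns, 0 were left unmapped.

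One model of 6 groups covered the counts of all 12 libraries of tissue, LPL and IEL in edgeR 4.0.16 (TMM factors, filterByExpr, robust quasi-likelihood test), which tested 14716 genes, and p-values were adjusted by Benjamini-Hochberg over all of them. CPM use the TMM factors, and the SE is the log2 difference divided by the root of the F statistic. CD8 tables were fitted apart with limma 3.58.1 (trend, robust) on log2(value + 1), keeping genes whose mean was 5 or more. The threshold was 0.05. DESeq2 1.42.0, other filters, pseudocounts, a replicate block and leaving out each library were alternatives, run in R 4.3.3. The fits were also run on simulated data with the same relative spread for every gene. That does not measure their power on libraries as uneven as these. The 12 other samples were not analysed here. The members, gene lists and marker lists were chosen with earlier results of these data known. Values in every library are given for members called in a comparison and, per KO comparison, for up to 8 members with the smallest p and a mean of at least 5. A further 6 members and Oas2 were added so that each is described. KO minus WT values within a replicate number were added after seeing the data.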

Additional observations from a re-analysis of the deposited data

How the results depend on the processing

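No member was called in a KO comparison or an interaction by edgeR or limma under any alternative, with 1 exception: without a filter on low genes, 1 member (Mx1) was called in the IL-15 set, as were 366 of 41341 genes. Between preparations the members called numbered 6 for IEL against tissue without a filter, where 6260 of 22785 genes were called. For IEL against LPL they numbered 8 with DESeq2 and 7 with the replicate block. The calls over all genes rose there too, to 3781 and 5721 of 14716, from 2844 in the fit described above. The cause was not tested. With each library left out, the median member difference ranged from 0.04 to 1.22 in tissue, -1.95 to -0.63 in LPL and -0.96 to 0.81 in IEL. In CD8 cells it ranged from -2.23 to -0.40 without stimulation and from -0.128 to 0.015 in the IL-15 set. Leaving out replicate 1 of both genotypes together gave -0.07 and -0.164. With each library left out, the interaction medians ranged from -2.78 to -1.31 (LPL minus tissue), -1.54 to 0.14 (IEL minus tissue) and 0.47 to 2.02 (IEL minus LPL). Members called ranged from 3 to 10 (IEL against tissue), 11 to 22 (LPL against tissue) and 0 to 3 (IEL against LPL). Genes that changed sign ranged, in tissue, from -0.40 to 1.71 (Ifit2) and -0.28 to 1.74 (Trim30a). In IEL they ranged from -1.45 to 0.89 (Ifit3), -1.41 to 0.73 (Ifit1), -1.34 to 0.96 (Isg15), -1.57 to 0.81 (Rtp4), -0.89 to 0.53 (Dhx58), -0.56 to 0.26 (Irf9), -0.0786 to 0.71 (Parp9) and -0.0761 to 0.44 (Dtx3l).

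Replicate numbers are shared labels. Deviations of same-numbered WT and KO libraries correlated in tissue (0.64), LPL (0.30) and IEL (0.47), where 2 libraries a group fix the sign of the other pairing, and at -0.06 to 0.00 in CD8 cells. With the replicate block in the joint fit 0 members were called in each KO comparison. The medians were 0.53 in tissue, -1.48 in LPL and -0.12 in IEL. At an unadjusted p under 0.05 edgeR gave 4, 16 and 0 members, against 1739, 622 and 563 of 14716 genes. The share of members in tissue was near that of all genes. With the block and only the 4 libraries of a preparation, edgeR gave 20, 7 and 3 members at that level, and 0 were called. The genes at that level were 1322 of 13404, 210 of 13220 and 1165 of 12844, so the members' share in IEL was near that of all genes. The joint block ended the calls of Mx2 and Oasl2 between LPL and tissue. With the block the CD8 medians were -0.81 and -0.07, with 0 called. The planned count tests on CD8 reads were not run, because the deposited values are not counts. Where a library was left out of a group of 2, the other was assumed to vary like the remaining groups. Depth limits members with few reads, such as Oas2 with 7 reads in 1 tissue library.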
